A study of Mus musculus with 2 samples.

Results

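Cilia are antenna-like or beating extensions of the cell surface built on a core of microtubules. The genes described here make and run that core: 83 of the 31053 genes in the count tables, taken by symbol. They comprise all symbols starting with Dnah (axonemal dynein heavy chains, the motors of beating), Cfap (cilia and flagella associated proteins), Rsph (radial spoke proteins) or Tekt (tektins, filaments inside the doublet microtubules), all symbols with Ift or Bbs before a digit, and Foxj1, Rfx2, Rfx3, Ccdc153 and Tmem212. The 56 motile members are the 15 Dnah, 26 Cfap, 8 Rsph and 5 Tekt genes with Ccdc153 and Tmem212, which are both known as markers of multiciliated ependymal cells. The 22 transport members are the 14 Ift genes, which encode the intraflagellar transport trains that carry cargo along every cilium, and the 8 Bbs genes, which encode the BBSome cargo adaptor and its assembly factors. The remaining members are the 3 transcription factor genes and the antisense genes Dnah2os and Ift88os, with at most 1 UMI in each library.

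Most cells of the developing brain carry a single non-motile primary cilium, which needs transport genes but not the beating machinery and serves hedgehog signalling. Radial glia of the lateral ventricle wall give rise to ependymal cells, which grow tufts of motile cilia that move cerebrospinal fluid. Foxj1 is the forkhead factor that switches on genes of motile cilia. RFX factors bind the X-box, a short inverted repeat in promoters of ciliary genes.

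Single-cell RNA counts came from 2 mouse libraries, 1 per age. The embryonic day 18 (E18) library was made from CD1 mice, from tissue dorsal to the lateral ventricles that held cortex together with dorsal ventricular-subventricular zone (V-SVZ). The postnatal day 2 (P2) library was made from Emx1Cre;R26Eyfpfl/fl mice, from dorsal and lateral V-SVZ after removal of the cortex. In these mice Cre under Emx1, a gene of the cortical primordium, switches on EYFP, so that EYFP marks cells descended from Emx1-expressing cells. Papain was used to dissociate the tissue of both libraries, and viable cells were sorted by exclusion of propidium iodide and uptake of DRAQ5, a DNA dye. Age, dissection, mouse line and library cannot be told apart, and with 1 library per age no test could be made.

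Of the barcodes, 2496 E18 cells with 18226068 UMIs and 2296 P2 cells with 35882247 UMIs were kept, with medians of 6574 and 12525 UMIs per cell. The libraries shared 0 barcodes. Levels are summed UMIs of a group of cells as counts per 1000000 of its UMIs (CPM). Bracketed ranges are 95% intervals that cover counting error only. A gene is counted as higher or lower when it differed at least 2-fold (1 on the log2 scale) and had 10 or more UMIs in both groups together. Cells were clustered without the 83 members, and each cluster was named from fixed marker genes that hold no member, so each name means "like" that type. By these names 64.2% of E18 cells were excitatory neuron-like and 49.4% of P2 cells were inhibitory neuroblast or interneuron-like. Leaving the members out can move cells between the ependymal-like and astrocyte-like names, which can therefore differ from names made with all genes.

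At P2 the ependymal-like class was a cluster of 9 cells, with 11 of its 12 markers counted and Sntn at 0. Apart from Rarres2 and Mia, these markers also stand in the list of other axonemal and dynein assembly genes used below. The class was thus named largely by genes of motile cilia, so its motile levels are not independent of its name. No E18 cluster took this name. The choroid plexus markers Ttr, Kl and Kcne2 were at 0 in the 9 cells, while Folr1 had 24 UMIs and Otx2 38. The summed choroid plexus list stood at 148 CPM there and 2.69 CPM in P2 cells without Foxj1. Its part in the values below was not tested.

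Foxj1 (ENSMUSG00000034227, chromosome 11, 116330704 to 116335399, minus strand, GRCm38) chose the P2 cells described next and is given as a description. At least 1 Foxj1 UMI was counted in 149 of 2296 P2 cells, a share of 6.49% (5.52 to 7.58). The cells held 727 Foxj1 UMIs, of which 490 lay in the 9 ependymal-like cells, at 27 to 97 a cell. All 9 ependymal-like cells had it, as did 40 of 86 astrocyte-like cells and 14 of 41 cells of the radial precursor or stem-like class, here called stem-like. The other 86 cells belonged to further classes and had 1 to 3 Foxj1 UMIs each. In 43 P2 microglia-like cells, which should lack the gene, Foxj1 was found in 0, which by the limit of 3 counts allows a share of up to 6.98% at a median of 19431 UMIs. The share over all P2 cells does not exceed that limit. Thinned to 5000 UMIs a cell, with 201 shallower cells left out, the P2 share was 2.67% (2.03 to 3.46), and that of the astrocyte-like class 20.5% (12.2 to 31.2).

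At E18, 20 of 2496 cells had a Foxj1 UMI, a share of 0.801% (0.490 to 1.23), or 0.765% after thinning. They held 23 UMIs. Of these cells, 9 were among the 93 radial precursor or stem-like cells, a share of 9.68% (4.52 to 17.6), against 7 of 1603 excitatory neuron-like cells, or 0.437% (0.176 to 0.898). Motile members per E18 Foxj1-positive cell ranged from 0 to 9 with a median of 2, and the cell with 9 was of the radial class.

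Motile genes were counted together in a small number of P2 cells. The ependymal-like cells each held UMIs of 44 to 52 of the 56 motile members, with a median of 47 and a median depth of 50676 UMIs. Thinned to 5000 UMIs they still held 19 to 34. Astrocyte-like cells with Foxj1 held 2 to 28 motile members (median 9.5, median depth 20661 UMIs), and astrocyte-like cells without it 0 to 9 (median 4, median depth 16440.5 UMIs). The 2 groups of astrocyte-like cells thus overlapped between 2 and 9 members, and 20 of the 40 cells with Foxj1 lay above that range. Thinned to 5000 UMIs, astrocyte-like cells with Foxj1 held a median of 3 members, and 6 of 38 had 10 or more. Those without Foxj1 then held a median of 1 and at most 7. Stem-like cells with Foxj1 held 3 to 8 members and those without 0 to 10. In all, 32 P2 cells had 10 or more motile members: 20 astrocyte-like, 9 ependymal-like, 2 inhibitory intermediate progenitor-like and 1 stem-like, and 31 of them had Foxj1.

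**Figure D1:**
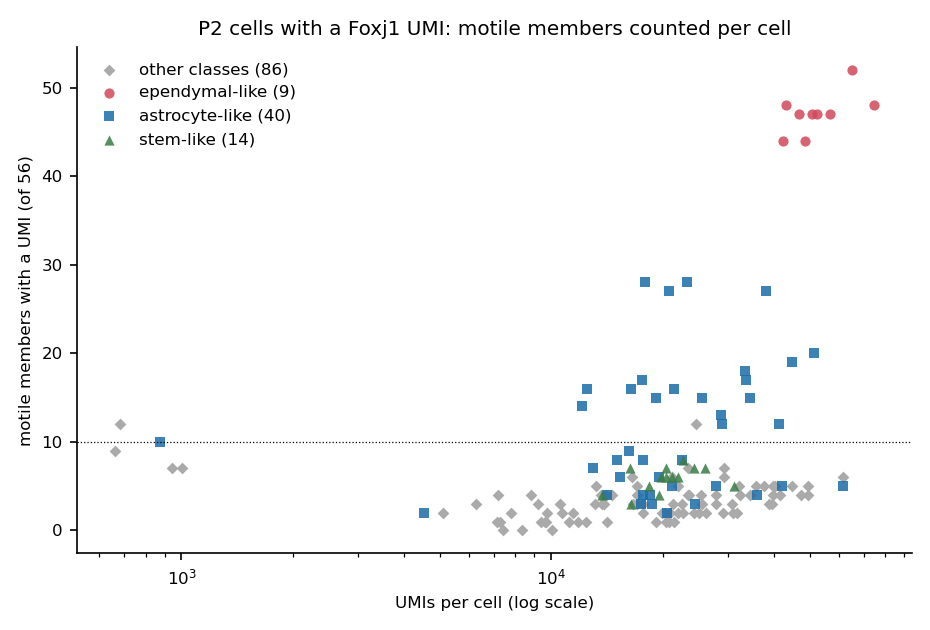
Motile members with at least 1 UMI (vertical axis, of 56) against UMIs per cell (horizontal axis, log scale) for the 149 P2 cells with a Foxj1 UMI; each point is a cell, marked by class, and the dotted line stands at 10 members. The 9 ependymal-like cells lie at 44 to 52 members, astrocyte-like cells spread from 2 to 28, and stem-like cells stay at 3 to 8.

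The 6 members Cfap20, Cfap36, Cfap97, Rsph9, Rsph3a and Tekt2 were counted widely in both libraries and were set aside for sums, a choice made after their values were seen. The other 50 motile members summed to 9795 CPM (9517 to 10079) in ependymal-like cells. They reached 627 CPM (578 to 679) in astrocyte-like cells with Foxj1, 99.5 CPM (79.8 to 123) in astrocyte-like cells without it, and 140 CPM (101 to 190) in stem-like cells with Foxj1. The 86 Foxj1-positive cells of other classes reached 60.4 CPM (49.6 to 72.8). Cells without Foxj1 outside the astrocyte-like and stem-like classes stood lower, at 34.3 CPM (32.3 to 36.5). Part of the sum of the 86 cells lay in very shallow cells. Those with 945, 1005, 681 and 662 UMIs held 5, 6, 10 and 7 of the 50 members. Microglia-like cells stood at 62.7 CPM (47.3 to 81.4). Of the 56 UMIs behind the microglial value, 38 were of Cfap43, at 42.5 CPM. The 9 ependymal-like cells held 70.6% of all P2 UMIs of the 50 members, from 1.34% of the P2 UMIs.

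Against the other 2147 P2 cells, 48 of 52 measured motile members were at least 2-fold higher in the 149 Foxj1-positive cells and 0 were lower. The median log2 ratio was 5.34, against 0.05 over all genes, of which 18.1% were higher and 6.2% lower. Many members reached the UMI minimum only through the Foxj1-positive cells. Among the 30 with 10 or more UMIs in the other cells alone, 26 were higher (all genes by the same rule: 15.6%), with a median of 3.70. The Foxj1-positive cells were deeper, at a median of 20989 UMIs against 12131.

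Among the dynein heavy chains, 13 of 14 measured members were higher. The inner-arm gene Dnah12 had 150 UMIs in Foxj1-positive cells, 140 of them in ependymal-like cells, and 2 in all other P2 cells, a log2 ratio of 9.41 (7.53 to 12.47). The inner-arm gene Dnah6 had 113 and 8 UMIs, a ratio of 7.0 (5.98 to 8.25). The outer-arm genes Dnah5 and Dnah9 had 81 and 96 UMIs in Foxj1-positive cells and 11 and 21 in the others, with ratios of 6.06 (5.15 to 7.12) and 5.38 (4.68 to 6.13). Dnah17 went the other way, with 0 UMIs in Foxj1-positive cells and 15 elsewhere, where it stood at 0.464 CPM. The interval of the Foxj1-positive cells reaches 1.04 CPM, so a difference was not detectable at this depth. Dnah7a, Dnah7b and Dnah7c are close paralogs, so the split of reads among them is uncertain.

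All 7 measured Rsph genes were higher. Rsph1 (chromosome 17, 31255019 to 31277383, minus strand), a radial spoke head gene, was the motile member with most UMIs in Foxj1-positive cells, at 1044 against 28 in the others. It had 39 to 190 UMIs in each of the 9 ependymal-like cells, and its log2 ratio was 8.40 (7.86 to 9.0). The spoke head gene Rsph4a had 79 and 3 UMIs, a ratio of 7.90 (6.30 to 10.21). The spoke head gene Rsph9 stood at 98.0 CPM in Foxj1-positive cells and 16.4 CPM in the others, a ratio of 2.58 (2.38 to 2.78). Rsph3a stood at 1.48 (1.11 to 1.85); it has the close paralog Rsph3b, so both values are uncertain.

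Among tektin genes, Tekt1 and Tekt4 were abundant in ependymal-like cells, at 479 CPM (419 to 545) and 515 CPM (452 to 583), with log2 ratios of 4.74 (4.42 to 5.08) and 7.44 (6.66 to 8.33) over Foxj1-negative cells for all Foxj1-positive cells. Tekt2 stood at 0.63 (0.05 to 1.16). Tekt5 had 0 UMIs in ependymal-like cells. Its 25 P2 UMIs lay mostly in the astrocyte-like class, 6 in cells with Foxj1 and 11 in cells without, and its ratio of 2.83 (1.55 to 4.08) over all P2 cells turned to -1.0 (-2.72 to 0.56) within that class.

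Of 24 measured Cfap genes, 22 were higher. Cfap126, also named flattop, a gene for basal body positioning, had 309 UMIs in Foxj1-positive cells and 26 in the others, a log2 ratio of 6.75 (6.17 to 7.39). Cfap206 (chromosome 4, 34688559 to 34730206, minus strand), which encodes a radial spoke docking protein, had 299 and 2, a ratio of 10.41 (8.54 to 13.46), with 10 to 43 UMIs in each ependymal-like cell. Cfap97 stood at 22.5 CPM and 21.7 CPM, a ratio of 0.05 (-0.30 to 0.39), and Cfap20, a gene of the inner junction of the doublet microtubule, at 0.83 (0.68 to 0.97). Cfap36 was counted everywhere and still stood at 1165 CPM (1070 to 1265) in ependymal-like cells against 82.8 CPM (79.7 to 86.0) in cells without Foxj1. Ccdc153 and Tmem212 were nearly confined to the 9 cells, which held 319 of 333 and 167 of 171 P2 UMIs.

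**Figure D2:**
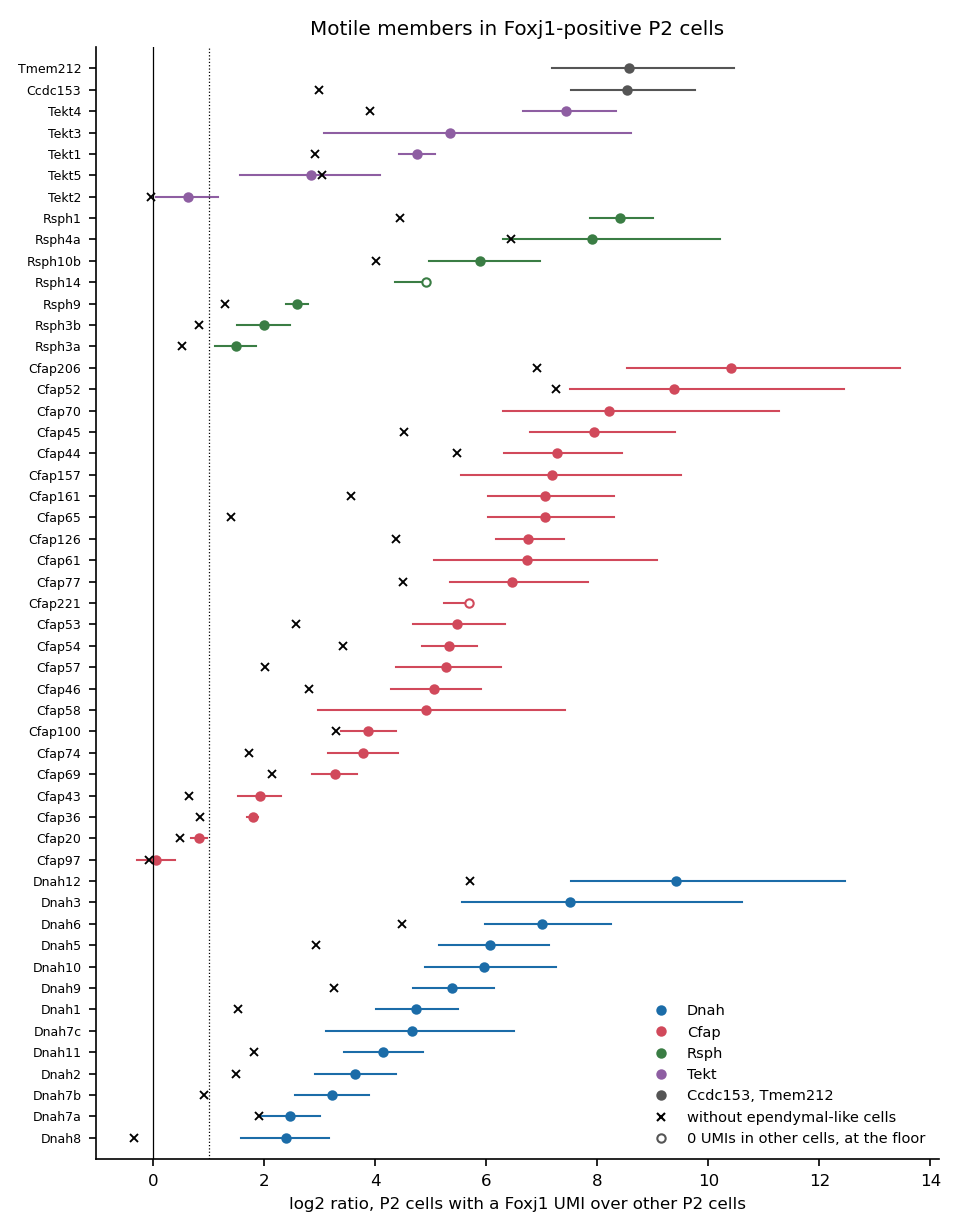
Log2 ratio of the level in 149 P2 cells with a Foxj1 UMI over 2147 other P2 cells for each motile member with 10 or more UMIs, with 95% counting intervals; crosses give the ratio without the 9 ependymal-like cells where 10 UMIs remain, and open circles are set at the floor. Most members lie right of the dotted 2-fold line, the crosses lie left of the points for nearly all genes, and Dnah17, with 0 UMIs in Foxj1-positive cells, is not drawn.

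Without the ependymal-like cells, 32 of 41 measured motile members were at least 2-fold higher in the remaining 140 Foxj1-positive cells and 0 lower, with a median of 2.81 (all genes 0.04; 14.2% higher, 5.7% lower). Of the 30 members measured by the other cells alone, 21 were higher, with a median of 1.85 (all genes by the same rule: 13.0%). Within the astrocyte-like class, 23 of 28 measured members were higher with Foxj1 and 1 was lower, with a median of 2.04 (8.3% of all genes higher, 5.23% lower). In this class 7 members had 10 UMIs in the Foxj1-negative cells alone, 2 of these were higher and 1 lower (all genes by the same rule: 2.55% higher), so most of the count rests on genes with few UMIs in the cells without Foxj1. Within the stem-like class 0 of 9 were higher and 1 was lower (5.07% and 6.83% of all genes).

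The level of motile genes in astrocyte-like cells with Foxj1, as a percentage of that in ependymal-like cells, differed between members. Foxj1 itself stood at 11.6% (9.34 to 14.2), a value raised by the choice of cells with a Foxj1 UMI. Among 43 motile members with 20 or more UMIs in ependymal-like cells, the same percentage had a median of 8.28 and ran from 0 to 57.1. Cfap100 (chromosome 6, 90403479 to 90428797, minus strand), whose relative in Chlamydomonas tethers inner dynein arms, stood highest at 57.1% (36.6 to 89.6), with 46 UMIs in 22 of the 40 astrocyte-like cells and 40 UMIs in the ependymal-like cells. Cfap100 was not confined to cells with Foxj1, with 65 UMIs in the whole astrocyte-like class and 11 in the stem-like class. Dnah7a stood at 54.6% (28.5 to 106), the widely counted Cfap20 at 41.5% (32.6 to 52.6), Cfap69 at 23.7% (14.9 to 36.9) and Rsph4a at 22.1% (13.1 to 36.3). At the other end, Tmem212, Dnah10 and Dnah3 had 167, 54 and 40 UMIs in ependymal-like cells and 0 in astrocyte-like cells with Foxj1. Ccdc153 stood at 0.467% (0.0958 to 1.38), Cfap65 at 0.864% (0.103 to 3.19) and Rsph1 at 2.57% (1.90 to 3.41). The intervals of Cfap100 and Rsph1 do not overlap. These genes were singled out after their values were seen.

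**Figure D3:**
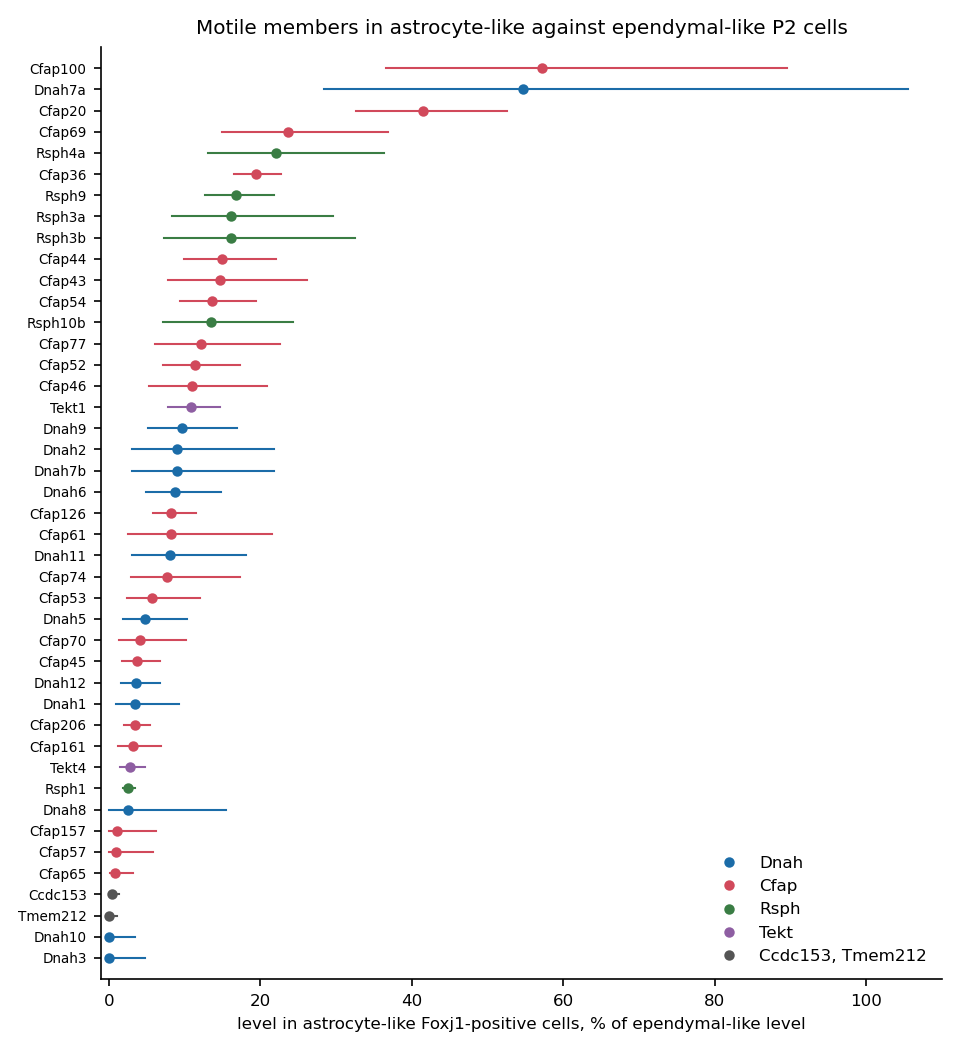
Level of 43 motile members in the 40 astrocyte-like Foxj1-positive P2 cells as a percentage of their level in the 9 ependymal-like cells (horizontal axis), with 95% counting intervals. Cfap100 and Dnah7a lie furthest right, at 57.1% and 54.6%, and Rsph1, Ccdc153 and Tmem212 lie under 3%.

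Of a list of 16 other regulators of multiciliated cells, 7 had more than 50% of their P2 UMIs in the same 9 cells and 9 did not. Of the 15 measured, 9 were higher in Foxj1-positive P2 cells and 0 lower (all genes: 18.1% and 6.2%). Some reached the minimum through the Foxj1-positive cells, and of the 11 with 10 UMIs in the other cells alone 5 were higher (all genes: 15.6%). Deup1, a gene of the deuterosome, on which centrioles form in multiciliated cells, had 437 of its 467 P2 UMIs in the ependymal-like cells, and Ccno, a cyclin-like gene that acts in centriole formation there, 157 of 223. Mcidas, Foxn4 and Trp73, transcriptional regulators of the multiciliated fate, had 48 of 52, 38 of 38 and 29 of 36 there. In the 40 astrocyte-like cells with Foxj1 the corresponding UMIs were 13 for Deup1, 16 for Ccno, 0 for Mcidas, 0 for Foxn4 and 2 for Trp73. The 3 genes of the list with most P2 UMIs, Gmnn, Plk4 and Ccp110, stood at -0.30 (-0.54 to -0.08), 0.03 (-0.22 to 0.26) and 0.15 (-0.13 to 0.43). Of 43 measured genes for other axonemal parts and dynein assembly, 39 were higher and 0 lower, and of the 35 with 10 UMIs in the other cells alone 31 were higher, with a median of 5.11 (all genes: 15.6%). The widely expressed dynein light chain genes Dynll1 and Dnal4 stood at 0.24 (0.19 to 0.29) and 0.14 (-0.07 to 0.35), and Riiad1 at 4.83 (4.63 to 5.03).

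The 10 genes outside the members with the highest lower bound of the Foxj1-positive ratio and 20 or more UMIs were 1700001C02Rik, Lrrc23, 1700012B09Rik, Meig1, Deup1, C230072F16Rik, Fam183b, Odf3b, Ccdc113 and Tctex1d4. Their log2 ratios ran from 7.69 for Tctex1d4, against a floor of 3 UMIs, to 10.50 (8.64 to 13.55) for 1700001C02Rik.

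Of the RFX factor genes, Rfx2 was scarce and Rfx3 was counted in every class. Rfx2 had 64 P2 UMIs, 28 of them in the 9 ependymal-like cells, and a log2 ratio in Foxj1-positive cells of 3.64 (2.88 to 4.41). Rfx3 had 1396 P2 UMIs and a ratio of 0.64 (0.42 to 0.86). Within the astrocyte-like class Rfx3 stood at 82.8 CPM (65.7 to 103) with Foxj1 and 33.9 CPM (22.9 to 48.4) without.

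Transport genes were counted in every class, and most in ependymal-like cells. There the 22 members summed to 4396 CPM (4211 to 4588). Next stood the stem-like class at 860 CPM (796 to 928) and the astrocyte-like class at 815 CPM (775 to 858), whose intervals overlap. Cycling cells at 653 CPM (634 to 673) and inhibitory intermediate progenitor-like cells at 622 CPM (599 to 646) also overlap. Striatal and excitatory neuron-like cells and excitatory intermediate progenitor-like cells lay between 558 and 574 CPM, inhibitory neuron-like cells at 527 CPM (515 to 540), oligodendrocyte precursor-like cells at 474 CPM (439 to 510) and microglia-like cells at 199 CPM (171 to 231). Leaving out microglia, 20 of the 22 members had their highest P2 level in ependymal-like cells. The exceptions were Bbs12 and Bbs10, which assist the folding of the BBSome, with 0 and 2 UMIs in those cells.

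**Figure D4:**
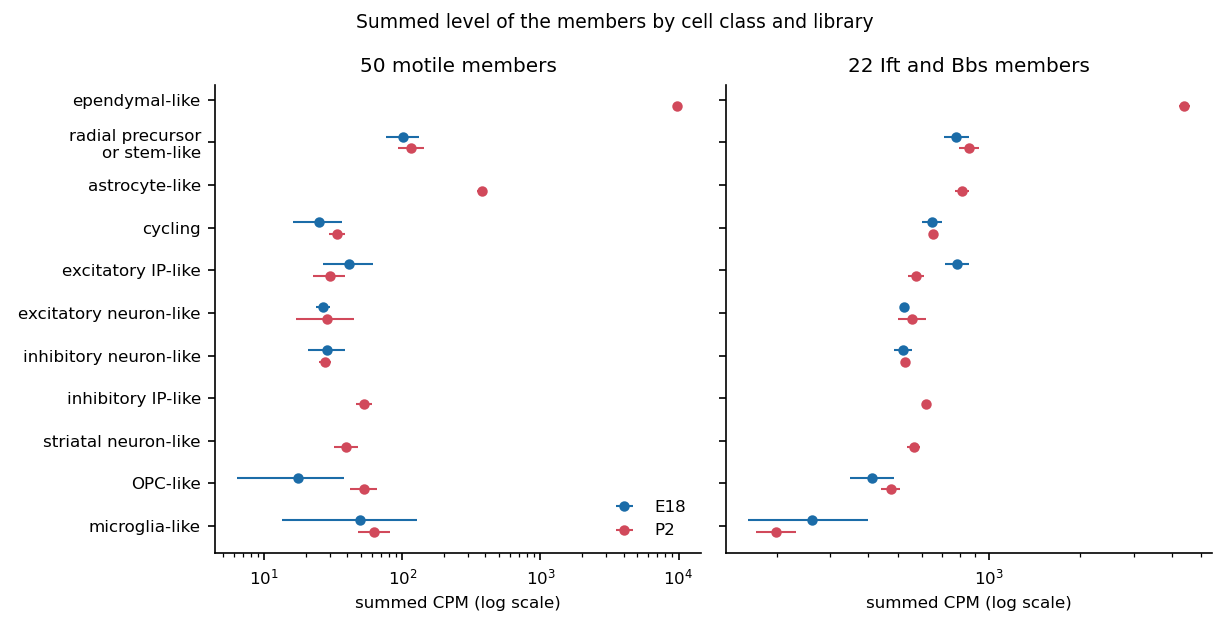
Summed CPM (log scale) of the 50 motile members without the 6 widely counted ones, left, and of the 22 Ift and Bbs members, right, by class, with 95% counting intervals, in the E18 and P2 libraries. Ependymal-like cells lie far right of all other classes in both panels, and the transport sum of the other classes other than microglia lies between 412 and 860 CPM; classes without an E18 point had no cluster of that name there.

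In P2 cells with Foxj1, 15 of 22 transport members were at least 2-fold higher than in the other P2 cells and 0 lower, with a median of 1.19 (all genes 0.05; 18.1% higher, as above). All 22 had 10 UMIs in the other cells alone. Of the train genes, 11 of 14 Ift members were higher, and 4 of 8 Bbs members. Among genes of the anterograde IFT-B train, Ift22 stood at 673 CPM (602 to 751) in ependymal-like cells and 38.0 CPM (35.9 to 40.1) in cells without Foxj1, a log2 ratio for all Foxj1-positive cells of 1.94 (1.79 to 2.09). Ift20 stood at 1.19 (1.07 to 1.31), Ift74 at 1.42 (1.27 to 1.57) and Ift80 at 1.72 (1.43 to 2.00), while Ift46 and Ift27 stood at 0.44 (0.24 to 0.63) and 0.58 (0.45 to 0.71). Of the retrograde IFT-A genes, Ift43, Ift140 and Ift122 stood at 1.38 (1.23 to 1.54), 1.28 (0.94 to 1.62) and 1.39 (1.08 to 1.70). Among BBSome genes, Bbs2, Bbs5 and Bbs7 stood at 1.11 (0.66 to 1.54), 1.18 (0.73 to 1.60) and 1.19 (0.78 to 1.58), and Bbs4 at -0.17 (-0.52 to 0.16).

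The count depended on the ependymal-like cells. Without them, 3 of 22 transport members were at least 2-fold higher, Ift57 at 1.11, Ift122 at 1.13 and Ift80 at 1.08, with a median of 0.48 and a background of 14.2%. Ift20 then stood at 0.01 (-0.17 to 0.20). Within the astrocyte-like class, 4 of 20 measured transport members were higher with Foxj1 and 0 lower, with a median of 0.66 (8.3% of all genes higher). Primary cilium and transition zone genes showed a like split, with 26 of 50 higher in all Foxj1-positive P2 cells and 10 of 50 without the ependymal-like cells. The most counted of them, Arl3, Kifap3 and Kif3a, which act in ciliary cargo release and as kinesin parts, stood at 0.43 (0.33 to 0.54), -0.32 (-0.46 to -0.18) and 0.20 (0.07 to 0.33) over all Foxj1-positive cells. Of 9 genes read as an output of hedgehog signalling, which passes through the primary cilium, 6 were higher in all Foxj1-positive cells, and 0 of 8 measured were higher and 3 lower within the astrocyte-like class (all genes there: 8.3% higher, 5.23% lower).

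The ependymal-like cells carried more mitochondrial UMIs, with a median of 6.35% against 4.53% in cells without Foxj1, and 2 of the 9 had 5% or less. With a limit of 5%, 39 of 45 measured motile members and 7 of 22 transport members were higher in Foxj1-positive cells, against 15.6% of all genes at that limit. The part of the mitochondrial share in these values was not tested.

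Promoters of the transport genes more often held the letters of an X-box. RefSeq promoters (GRCm38.p6, 250 bases before to 50 after the start) were found for 67 members, 46 motile and 19 transport among them. The loose X-box, GTNNCC and GGNAAC with any pair of letters between them, was in 26.3% of transport genes, 4.35% of motile genes and 1.49% of all genes with a promoter. The 6 letters GTTGCC, a single arm of the repeat that can lie within it, were in 42.1%, 34.8% and 14.1%. The stricter form, GTTGCC and GGCAAC with the same gap, was in 0 members. The forkhead core TGTTTA was in 23.9% of motile, 10.5% of transport and 15.1% of all genes, and its longer form TGTTTAC in 8.70%, 0 and 4.05%. All motifs were searched on both strands, and a match is a description of these letters. The loose form was found in the transport genes Bbs7, Ift22, Bbs4, Ift57 and Bbs1 and in the motile genes Cfap206 and Tekt4. In 4 of them the match and 16 bases on each side lay wholly before the RefSeq start. These stretches show how the match reads in each (5′ to 3′ along the gene, match in capitals, Tekt4 at an alternative RefSeq start). In Bbs7 and Tekt4 the capitals read the loose form as written, and in Ift22 and Ift57 they read it on the opposite strand. The Ift22 promoter held 2 matches, of which the first is shown.
Bbs7 (chr3:36613481-36613526, minus strand): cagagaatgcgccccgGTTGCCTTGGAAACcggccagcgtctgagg
Ift22 (chr5:136908071-136908116, plus strand): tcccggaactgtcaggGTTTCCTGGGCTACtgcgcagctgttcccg
Ift57 (chr16:49699191-49699236, plus strand): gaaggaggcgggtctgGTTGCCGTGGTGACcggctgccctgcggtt
Tekt4 (chr17:25471414-25471459, plus strand): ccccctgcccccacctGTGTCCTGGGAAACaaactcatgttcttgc
The match began 121 bases before the start in Bbs7, 63 in Ift22, 87 in Ift57 and 160 in Tekt4. The transport genes shown were counted in every named P2 class, Ift57 for instance at 120 CPM in stem-like cells and 7.8 CPM in microglia-like cells, whereas 247 of 281 P2 UMIs of Tekt4 lay in the 9 ependymal-like cells.

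Summed over all cells, transport genes as a whole differed between the libraries about as much as genes in general. P2 stood over E18 at a median log2 ratio of 0.47 for the 22 members and 0.39 for all genes, and TMM scaling moves every ratio down by 0.29. At least 2-fold higher at P2 were 4 members, Ift80, Ift74, Bbs2 and Bbs7, and 1 was lower, Bbs12 (all genes: 30.7% higher, 9.63% lower). Ift80 (chromosome 3, 68892499 to 69004570, minus strand) had 83 UMIs at E18 and 522 at P2, a ratio of 1.68 (1.34 to 2.03). Ift74 (chromosome 4, 94614491 to 94693229, plus strand) had 376 and 2021, a ratio of 1.45 (1.29 to 1.61). For Bbs2 the ratio was 1.38 (0.96 to 1.82), and for Bbs7, with 79 and 333 UMIs, 1.10 (0.74 to 1.47). Bbs12 (chromosome 3, 37312554 to 37321453, plus strand) had 39 UMIs at E18 and 36 at P2, a ratio of -1.09 (-1.79 to -0.40). Of the most counted members, Ift20 and Ift46 stood at -0.20 (-0.28 to -0.12) and -0.29 (-0.39 to -0.18), Ift27 at 0.65 (0.56 to 0.75) and Bbs4 at 0.08 (-0.09 to 0.25), and Bbs5 and Ift22 at 0.48 (0.15 to 0.83) and -0.18 (-0.30 to -0.07).

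The ratio of Ift74 differed between cycling and excitatory intermediate progenitor-like cells, while the class intervals of Ift80 all overlapped. In cycling cells, excitatory intermediate progenitor-like cells and oligodendrocyte precursor-like cells, Ift74 stood at 0.69, -0.82 and -0.11 and Ift80 at 0.69, -0.63 and 0.23. In these classes 1 of 20, 2 of 20 and 3 of 15 measured transport members were higher at P2, against 15.3%, 26.1% and 29.5% of all genes, and 0, 0 and 1 were lower, against 11.5%, 10.3% and 5.9%. The median log2 ratio of the transport members was -0.11, -0.46 and 0.13, in each class under that of all genes, at 0.07, 0.26 and 0.41. In inhibitory neuroblast or interneuron-like cells Ift74 stood at 14 CPM (8.67 to 21.4) at E18 and 36.1 CPM (33.0 to 39.5) at P2, and Ift80 at 1.33 CPM (0.161 to 4.82) and 9.29 CPM (7.75 to 11.0). In excitatory neuron-like cells Ift74 stood at 15 CPM (12.8 to 17.3) and 9.48 CPM (3.48 to 20.6), and Ift80 at 3.63 CPM (2.63 to 4.89) and 12.6 CPM (5.46 to 24.9). Both of these classes held clusters led by markers of another class, so their values are set side by side with no ratio. Class shares also differed between the libraries, and their part in the ratios over all cells was not tested.

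**Figure D5:**
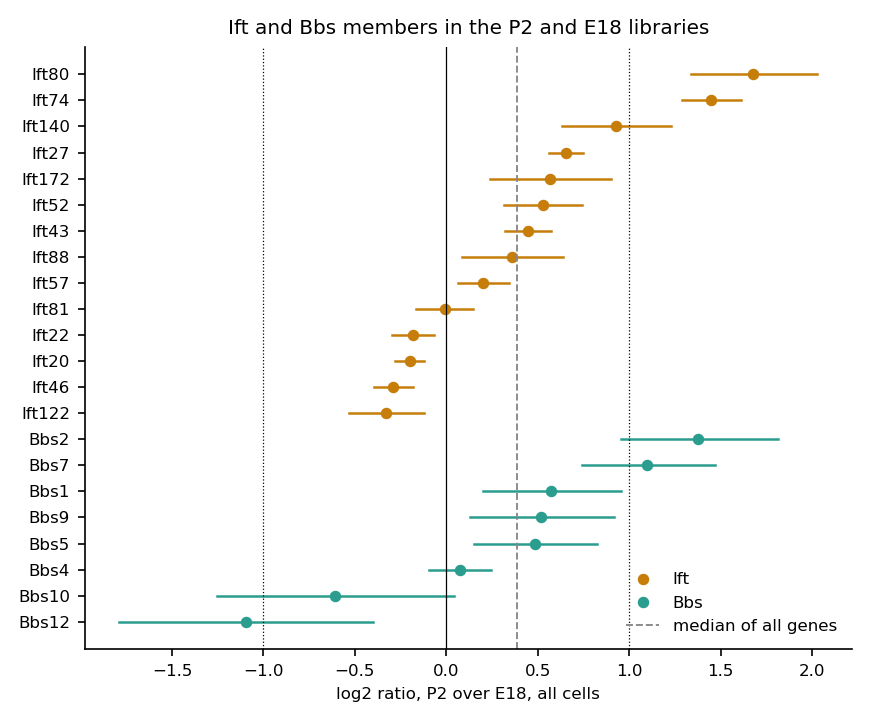
Log2 ratio of P2 over E18 in all cells for the 14 Ift and 8 Bbs members, with 95% counting intervals; the dashed line is the median of all genes (0.39) and the dotted lines mark 2-fold. Ift80, Ift74, Bbs2 and Bbs7 lie beyond 2-fold on the right and Bbs12 on the left, and the rest lie between.

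Motile genes were scarce at E18. Of the 56 members, 12 had 0 UMIs among the 18226068 counted, Ccdc153, Tmem212, Cfap126, Cfap65, Cfap161, Cfap157, Cfap61, Cfap221, Cfap73, Dnah10, Dnah3 and Tekt3, and all 56 were counted at P2. Over all cells 38 of 52 measured motile members were at least 2-fold higher at P2 and 1, Tekt2 at -1.08 (-1.35 to -0.81), was lower (all genes: 30.7% and 9.63%, median 0.39). The median was 2.40, but many members reached the minimum through P2. Of the 20 with 10 UMIs at E18 alone, 9 were higher and 1 lower, with a median of 0.83 (all genes by the same rule: 21.5% higher, median 0.21). The 50 members summed to 29.6 CPM (27.1 to 32.2) at E18 and 186 CPM (181 to 190) at P2, or 55.3 CPM (52.9 to 57.8) at P2 without the ependymal-like cells, a log2 ratio of 0.90 (0.76 to 1.04). Within E18 the radial class held most, at 101 CPM (76.7 to 131), against 26.7 CPM (23.8 to 29.8) in excitatory neuron-like cells. Rsph1 had 25 UMIs at E18, 6 of them in the 20 Foxj1-positive cells. Tekt1 and Dnah7a, with 120 and 83 E18 UMIs, were spread over neuronal and progenitor classes.

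The P2 Foxj1-positive cells included cells with and without EYFP, 52 and 97. EYFP was found in 4 of 9 ependymal-like cells, with 14, 16, 1 and 2 UMIs, in 9 of 40 astrocyte-like cells with Foxj1 and in 13 of 14 stem-like cells with Foxj1. Among cells without Foxj1 it was found in 15 of 46 astrocyte-like and 25 of 27 stem-like cells. Over all Foxj1-positive cells, 1 of 50 measured motile members was higher with EYFP and 1 lower (3.48% and 3.97% of all genes), with a median of 0.02. Those were Tekt2, at 1.56, and Tmem212, at -1.21. In the ependymal-like class the summed motile level was 11868 CPM (11433 to 12315) with EYFP and 11966 CPM (11535 to 12409) without. In the astrocyte-like class with Foxj1 the motile level per UMI was lower with EYFP, 776 CPM (684 to 877) against 1274 CPM (1188 to 1365). The groups were 9 cells with 257 motile UMIs and a median depth of 37986 UMIs, and 31 cells with 809 and a median depth of 19180. Here 15 of 26 measured members were at least 2-fold lower with EYFP (all genes in this comparison: 8.96%). Of the UMIs of the 50 members, 119 lay in the cells with EYFP and 487 in those without. Members could thus reach the UMI minimum through the cells without EYFP, where they were higher, and no count by the cells with EYFP alone is given. A cell without an EYFP UMI can be a labelled cell in which it was missed.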

How the data were processed

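Single-cell RNA was counted in 1 library per age. The deposited files hold raw UMI counts per gene and barcode, made with Cell Ranger 4.0.0 per the file headers and against mm10 per the submitters' processing notes. For cell calling, chemistry and strand setting, the method was not given in the sources used here. A gene on the opposite strand overlaps 32 members, whose reads cannot be told apart without the strand. Rsph10b overlaps genes on its own strand.

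Barcodes with 500 or more genes and at most 10% mitochondrial UMIs were kept (291 E18 and 336 P2 removed). The highest 5% of Scrublet doublet scores were dropped, 135 and 146 barcodes; the automatic threshold marked 0.266% and 0.164%, too few to have worked. Cells were clustered per library with scanpy 1.11.5 (2000 variable genes, 30 components, 15 neighbours, Leiden resolution 1) without members, EYFP, mitochondrial, haemoglobin and sex genes. Intervals are exact Poisson, Clopper-Pearson or conditional binomial. A 0 was set to 3 UMIs over the group in ratios. UMIs are the only depth, and 1 library per age gives no replicate error. The self-made calculations were tested on simulated data.

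Named members were the 5 single genes, the 4 most counted of each family, and members that did not follow their family or passed 2-fold between libraries; others named were chosen after their values were seen. The members and lists were chosen with earlier results of these data known. Alternatives changed the cell filter, doublets, scaling, UMI minimum, Foxj1 threshold and cells compared.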

Additional observations from a re-analysis of the deposited data

Results flagged for a closer look

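Cells with many motile members were also found among P2 barcodes that the filters had removed. Of the 336 barcodes removed for mitochondrial share or few genes, 5 had 10 or more motile members. The highest had 52 members, 43 Foxj1 UMIs and 52881 UMIs at 10.4% mitochondrial UMIs, just past the 10% limit, and the others had 28, 18, 16 and 12 members. Of the 146 barcodes dropped for their doublet scores, 7 had 10 or more, with 10 to 22 members and 40504 to 142519 UMIs each. No removed E18 barcode reached 10 members. These barcodes stand outside the comparisons and were flagged for that reason.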

How the results depend on the processing

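The count of motile members higher in P2 Foxj1-positive cells (48) ranged from 32 to 51 under the other settings, apart from 23 of 28 in the astrocyte-like class alone, where fewer genes reach the minimum. For transport members in the same cells (15) the count was 7 at a limit of 5% mitochondrial UMIs and 3 outside the ependymal-like class, and 12 to 16 otherwise. Between libraries (4) it was 1 by the mean of the ratios of the 3 compared classes, which leaves out all others, and 3 or 4 otherwise. The count of motile members lower with EYFP (1) was 5 at a limit of 5% mitochondrial UMIs, 6 with doublets kept, 6 at 2 or more Foxj1 UMIs, 3 in ependymal-like cells alone and 15 in astrocyte-like cells alone; the cause was not tested. The P2 Foxj1 share was 2.134% at 2 or more UMIs, and 46.94% of those cells had 10 or more motile members. Tekt5 turned to -1.0 in astrocyte-like cells alone. The settings by class alone and without cells under 2000 UMIs were chosen after seeing the data. No paired analysis was possible because the groups share only 1 replicate number and no result comes from a test. No library could be left out with 1 per age. Depth limits members with few UMIs, such as Dnah17, and shares of cells with Foxj1.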

Other observations

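Summed over cells, shallow P2 cells held more motile RNA per UMI than deeper ones. The 80 kept P2 cells with under 2000 UMIs had 79 UMIs of the 50 motile members without the 6 widely counted ones, or 891 CPM (706 to 1111), against 184 CPM (179 to 188) in the deeper cells. Of these 80 cells, 5 had Foxj1 and 2 had 10 or more motile members. The 5 cells with Foxj1 each had UMIs of 5 to 10 of the 50 members, so a large part of the sum lay in few cells. The 59 E18 cells under 2000 UMIs had 2 such UMIs, or 24.9 CPM (3.01 to 89.9), against 29.6 CPM (27.1 to 32.2) in deeper E18 cells.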
